A study of Homo sapiens with 288 samples.

Results

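The MHC class I and antigen processing genes described here are HLA-B, HLA-C, HLA-E, HLA-F, B2M and TAP1. They were chosen by name from a list of 8 genes, which was drawn up with earlier results of these data known. Of the 8, 6 were analysed of the 17492 protein-coding genes in the 3 count tables. HLA-G and NLRC5, also on the list, were not analysed here. The cells came from the H1 line, a human embryonic stem cell line, and were taken along 1 of 2 paths. Endothelial cells (EC) were made in E8 medium, with Activin A at 25 ng/ml and BMP4 at 5 ng/ml for 2 days and with VEGF and WNT for the next 3 days. Trophoblast-like cells (TB) were made in E7 medium, which lacks FGF2, with SB431542 and BMP4 at 50 ng/ml. Single cells were captured on the Fluidigm C1, which lyses each cell in a chamber of its own and makes amplified full-length cDNA. Amplified material from 45 EC and 51 TB cells was brought to 1 input amount for library making, and was sequenced in the experiments EQ (equal pooling volumes), EQ-Vary (pooling volumes made unequal on purpose) and EQ-75% (EQ repeated at lower depth), which gives 288 libraries.

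MHC class I molecules carry peptides from inside the cell to its surface, where T cells and natural killer cells read them. The molecule is a heavy chain, encoded by an HLA gene, held by the light chain beta-2 microglobulin, the product of B2M. HLA-B and HLA-C are classical heavy chains that show many peptides, and HLA-E and HLA-F are non-classical. HLA-E mostly binds peptides cut from the leader sequences of other class I heavy chains and is read by the natural killer cell receptor CD94/NKG2A. TAP1 is a subunit of the transporter that brings peptides into the endoplasmic reticulum for loading. Trophoblast cells of the placenta are known for an unusual set of class I molecules, with HLA-C as the classical heavy chain of the invasive extravillous trophoblast, and endothelial cells are known for high class I.

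Each cell type in each experiment was 1 sample, since the labels name no separate cultures. No test was therefore possible, SDs give the spread between cells, and differentiation, capture and cell type cannot be told apart. Cells were kept by the limits of the methods on depth and on how far their 50 highest genes dominated. They were 38 EC and 48 TB in EQ, with 365536 to 3966798 counts each, with 38 EC and 46 TB kept in EQ-Vary and 39 EC and 50 TB in EQ-75%. The labels were checked on marker lists. In EQ, 10 of 10 endothelial markers were at least 2-fold higher in EC, and 9 of 10 trophoblast markers were at least 2-fold higher in TB, among them KRT18 (327 CPM in EC and 1926 CPM in TB). CPM is the count divided by the cell's total and multiplied by 1000000. The TB cells also held 5 of 7 compared mesenchymal genes at least 2-fold above EC, with LUM at 3042 CPM against 10.2 CPM, and the mesenchymal list summed to 656 to 10665 CPM in TB cells and 5.58 to 671 CPM in EC cells. Of extravillous trophoblast markers, 2 of 6 compared genes were higher in TB, MMP2 at 79.4 CPM and DIO2 at 17.1 CPM there, and 3 in EC. HTRA4 was within 2-fold, at 52.9 CPM in TB. ASCL2, MMP12 and NOTUM were at or below 0.367 CPM in TB. These extravillous genes were named after their values were seen. Of 10 listed syncytiotrophoblast genes only 5 were among the genes counted, and these summed to at most 28.3 CPM in any TB cell. Of the pluripotent list 1 of 5 compared genes was higher in TB and 2 in EC, and of the blood and immune list 0 of 3 was higher in TB and 1 in EC. The part of these other markers in the results below was not tested.

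The heavy-chain genes lie in the MHC region of chromosome 6 and are close copies of each other, which limits how well short reads tell them apart. Exon 4, which encodes the membrane-near alpha-3 domain, has 276 bases in all 4 genes. Its first 60 bases are shown here because a read of 51 bases with 2 mismatches allowed, as used for these counts, can match more than one of them. Capitals mark the bases that differ from HLA-B, from the GENCODE v44 transcripts on GRCh38.
HLA-B, chr6:31355533-31355592, minus strand: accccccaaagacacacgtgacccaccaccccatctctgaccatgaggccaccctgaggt
HLA-C, chr6:31270426-31270485, minus strand: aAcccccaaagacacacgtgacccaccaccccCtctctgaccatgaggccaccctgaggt
HLA-E, chr6:30491137-30491196, plus strand: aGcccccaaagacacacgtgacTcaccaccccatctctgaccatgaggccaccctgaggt
HLA-F, chr6:29725031-29725090, plus strand: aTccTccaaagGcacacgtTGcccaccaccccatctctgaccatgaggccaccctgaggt
In this stretch HLA-C and HLA-E each differed from HLA-B at 2 positions and HLA-F at 5, and over the whole exon at 18, 22 and 25 positions.

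Over the whole reference transcript, 32.7% of the 51-base stretches of HLA-B lay within 2 mismatches of HLA-C, and 32.6% of those of HLA-C lay within 2 mismatches of HLA-B. For HLA-E, 4.92% of stretches were that close to HLA-B and 4.80% to HLA-C, and for HLA-F 4.90% and 7.55%. Exact copies in another gene were rarer, at 2.02% of stretches for HLA-B, 3.55% for HLA-C, 2.44% for HLA-E and 1.61% for HLA-F. B2M had no stretch in common with another analysed gene, and TAP1 had 1.14% in common with TAP2. RSEM, which made the counts, divides such reads among the genes, so HLA-B and HLA-C are the pair whose values are least separate. Reads from an allele that differs from the reference at more than 2 positions in 51 bases are not counted for that gene. Such a read can be counted for another gene if it lies within 2 mismatches of that one. The part of H1's own alleles in the HLA levels was not tested.

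The starts of these genes are shown for the motifs searched in the 250 bases before them: CCAAT, bound by NF-Y, GAAANNGAA, bound by interferon regulatory factors, and TGACG, of the CRE type. Both strands were read, motifs could overlap, and capitals mark a match. The sequences are RefSeq promoters on GRCh38.p14, where 5 of the 6 genes had an entry, HLA-E being the other gene.
HLA-B, 106 to 77 bases before the start, chr6:31357256-31357285, minus strand: TGACGcgtccccacttcccactcccATTGG
HLA-C, 105 to 76 bases before the start, chr6:31272168-31272197, minus strand: TGACGcgtccCCAATtcccactcccATTGG
HLA-F, 82 to 53 bases before the start, chr6:29723352-29723381, plus strand: ATTGGgcgtcgcgtttctagagaagCCAAT
B2M, 150 to 121 bases before the start, chr15:44711367-44711396, plus strand: ctctaaGAAAAGGAAACTGAAaacgggaaa
TAP1, 138 to 109 bases before the start, chr6:32853813-32853842, minus strand: ccgctTTCGATTTCGCTTTCccctaaatgg
The HLA-B and HLA-C stretches shared 29 of 30 bases, and only HLA-C of the pair held the inner CCAAT. B2M and TAP1 each held 2 overlapping matches to GAAANNGAA and HLA-F held 1, while 6.87% of 34943 promoters of the same length held this motif. TGACG stood before HLA-B, HLA-C and B2M and in 21.2% of all promoters, and CCAAT stood before all 5 genes and in 32.04% of all. Another TAP1 start that RefSeq lists had 0 matches to these motifs. A match is a description of the letters, and no binding was measured.

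In EQ, EC cells held more mRNA of most of these genes than TB cells, and HLA-C went the other way. Of the 6 genes, 5 had a mean CPM at least 2-fold higher in EC (HLA-B, HLA-E, HLA-F, B2M and TAP1) and 1 was at least 2-fold higher in TB (HLA-C). Among the 12351 genes compared, those whose EC and TB mean CPM averaged at least 1, 19.2% were at least 2-fold higher in EC and 26.2% in TB. The 6 genes were chosen with earlier results of these data known, so these shares are a background and not a test. The median log2 ratio of TB over EC was -1.78 for the 6 genes and 0.06 for all genes compared. TAP1 passed the filter only through 1 EC cell, and without that cell 4 genes were higher in EC and 1 in TB. Fewer transcripts per cell and a smaller share of a larger mRNA pool cannot be told apart on the CPM scale.

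**Figure D1:**
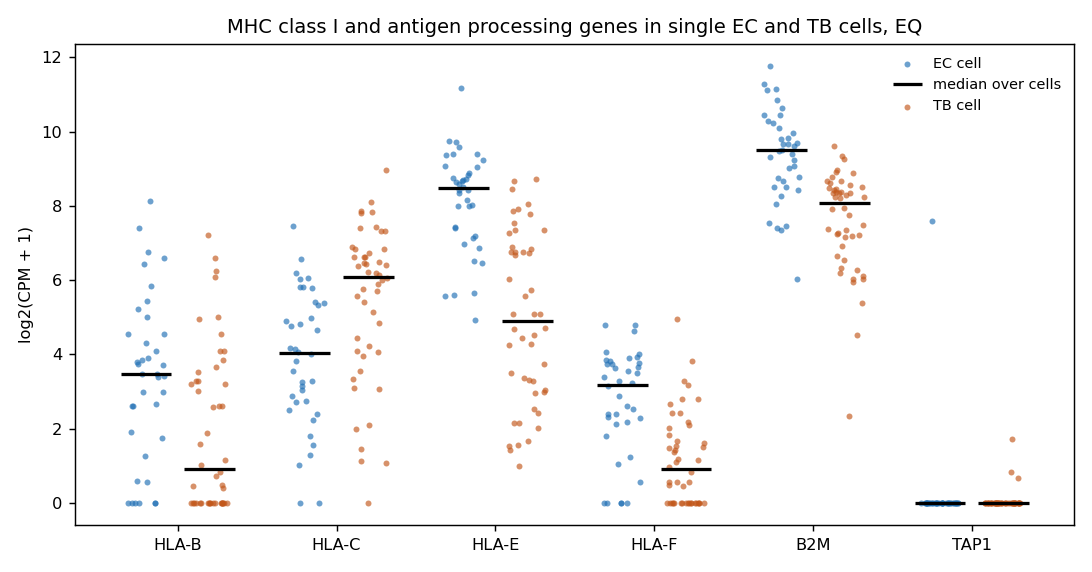
Level of each gene in the 38 EC (blue) and 48 TB (orange) cells of EQ, as log2(CPM + 1), with 1 point per cell and black bars at the median over cells. The median of HLA-C is higher in TB, those of HLA-B, HLA-E, HLA-F and B2M are higher in EC, and TAP1 is at 0 in all but 1 EC cell and 3 TB cells.

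HLA-B (ENSG00000234745, minus strand of chr6:31353872-31367067) was low and uneven in both cell types. In EC its level ran from 0 to 281 CPM with a median of 10.1 CPM, and in TB from 0 to 147 CPM with a median of 0.898 CPM. The groups overlapped widely, with 30 of 38 EC cells above the TB median and only 2 above every TB cell. Mean levels were 29.6 ± 55.1 CPM in EC (SD, n = 38 cells) and 12.5 ± 28.03 CPM in TB (SD, n = 48 cells), a log2 ratio of TB over EC of -1.24. This call rested in part on EC cell 37, which held the 281 CPM. Without it the log2 ratio was -0.87, short of 2-fold. A count was found in 32 EC cells, or 84.2% with an exact binomial interval of 68.7 to 94.0%, and in 29 TB cells, or 60.4% with an interval of 45.3 to 74.2%. These intervals cover only the error of drawing a limited number of cells, with the cells taken as independent draws. With each cell thinned to 1000000 counts, which left out 4 shallower cells of each type, the shares were 87.4% in EC and 52.5% in TB.

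HLA-C (ENSG00000204525, minus strand of chr6:31268749-31272130) was the gene with the higher level in TB. Its EC levels ran from 0 to 175 CPM with a median of 15.3 CPM, and its TB levels from 0 to 498 CPM with a median of 67.6 CPM. Most TB cells lay above most EC cells: 37 of 48 TB cells were above the EC median and 3 of 38 EC cells above the TB median. The means were 27.7 ± 34.3 CPM in EC and 85.0 ± 92.1 CPM in TB, which is 3.06-fold higher in TB. The highest TB value came from cell 40, whose EQ library was the shallowest of those kept (365536 counts). The same cell had 149 CPM of HLA-C in its EQ-75% library of 2009129 counts, and without it the EQ log2 ratio was 1.46 in place of 1.62. Detection did not separate the cell types, with a count in 36 of 38 EC cells and 47 of 48 TB cells.

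HLA-E (ENSG00000204592, plus strand of chr6:30489509-30494194) separated the cell types in level. EC cells held 29.4 to 2332 CPM with a median of 354 CPM. TB cells held 1.01 to 424 CPM with a median of 29.1 CPM. All 38 EC cells were above the TB median, 13 were above every TB cell, and 2 of 48 TB cells reached the EC median. Means were 408 ± 394 CPM in EC and 84.3 ± 109 CPM in TB, 4.84-fold higher in EC. The gene was detected in every passing cell of EQ, so the cell types differed in level and not in the share of cells with a count.

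HLA-F (ENSG00000204642, plus strand of chr6:29722775-29738528), a heavy chain that stays largely inside resting cells, was low in both. Levels ran from 0 to 26.7 CPM in EC (median 8.12 CPM) and from 0 to 30.1 CPM in TB (median 0.885 CPM). The TB maximum was again the shallow library of cell 40, where it stood for 11 counts, and the same cell had 3.48 CPM in EQ-75%. The means were 8.52 ± 7.17 CPM in EC and 2.48 ± 4.91 CPM in TB, a log2 ratio of -1.78, and -2.17 without cell 40. HLA-F had a count in 33 EC cells (86.8%) against 30 TB cells (62.5%), and after thinning in 85.5% against 53.2%.

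B2M (ENSG00000166710, plus strand of chr15:44711358-44718851), the light chain common to all class I molecules, was present in every passing cell. EC cells held 64.2 to 3498 CPM with a median of 723 CPM, and TB cells 4.05 to 779 CPM with a median of 269 CPM. Of the EC cells 18 of 38 were above every TB cell, and 1 of 48 TB cells was above the EC median. Mean levels were 904 ± 748 CPM in EC and 262 ± 176 CPM in TB, 3.45-fold higher in EC. In TB its level went down as depth went up, with Spearman's rho with total count of -0.42 over 48 cells in EQ. In TB rho was -0.42 over 50 cells in EQ-75% and -0.31 over 46 cells in EQ-Vary. In EC rho was 0.03 over 38 cells in EQ. The cells are not independent samples, and the part of depth in the TB spread was not tested.

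TAP1 (ENSG00000168394, minus strand of chr6:32845209-32853816) was found in few cells of either type. EC cell 35 held 572 counts, or 191 CPM. The other 37 EC cells had 0 counts, and 3 TB cells held 3, 2 and 1 counts. The means of 5.04 CPM in EC and 0.077 CPM in TB therefore describe 1 cell, and without it the sign of the log2 ratio turned, from -6.03 to 0.95 with EC set to 3 counts. Cell 35 also held TAP1 in the other libraries made from its cDNA, at 171 CPM in EQ-Vary and 158 CPM in EQ-75%, where no other EC cell had more than 1 count. TAP2, the partner subunit, was found in 2 EC and 5 TB cells, at means of 0.095 and 0.233 CPM, and had 0 counts in cell 35.

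The other genes of EC cell 35 were examined after its TAP1 value was seen. It had the highest level of 38 EC cells in EQ for IRF1, an interferon-induced activator of class I promoters (177 CPM against a median of 43.2 CPM), and for ERAP2, which trims peptides in the endoplasmic reticulum (136 CPM, with 8.48 CPM in the next highest cell). The immunoproteasome subunits PSMB8 and PSMB9 were both at 13.4 CPM in this cell and at 0 in the median EC cell. Its B2M had rank 4 of 38 at 2241 CPM, HLA-E rank 5 at 673 CPM and HLA-B rank 6 at 56.9 CPM, while IFIT1 had 0 counts and IFIT3 had rank 16. ERAP2 was also highest in this cell in EQ-Vary and EQ-75%, and IRF1 had rank 2 in both. Other genes of the lists described below were low in cell 35 in EQ. TAPBP was at 31.8 CPM (rank 35 of 38), PSME2 at 0.669 CPM (rank 37) and BST2 at 0 (rank 36). The ranks over whole lists were not summarized.

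Another EC cell, number 20, held immunoproteasome mRNA without TAP1. PSMB8 was at 101 CPM, where the next highest cell was number 35, PSMB9 at 18.9 CPM and IFIT1 at 101 CPM, where no other EC cell exceeded 0.501 CPM. Its B2M had rank 2 of 38 at 2482 CPM, but its IRF1 had rank 13 at 51.7 CPM and its HLA-B rank 20 at 10.1 CPM. PSMB8 and IFIT1 were again highest in cell 20 in both other experiments. These cells were picked by their values, and no other cell was compared with them in this way.

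**Figure D2:**
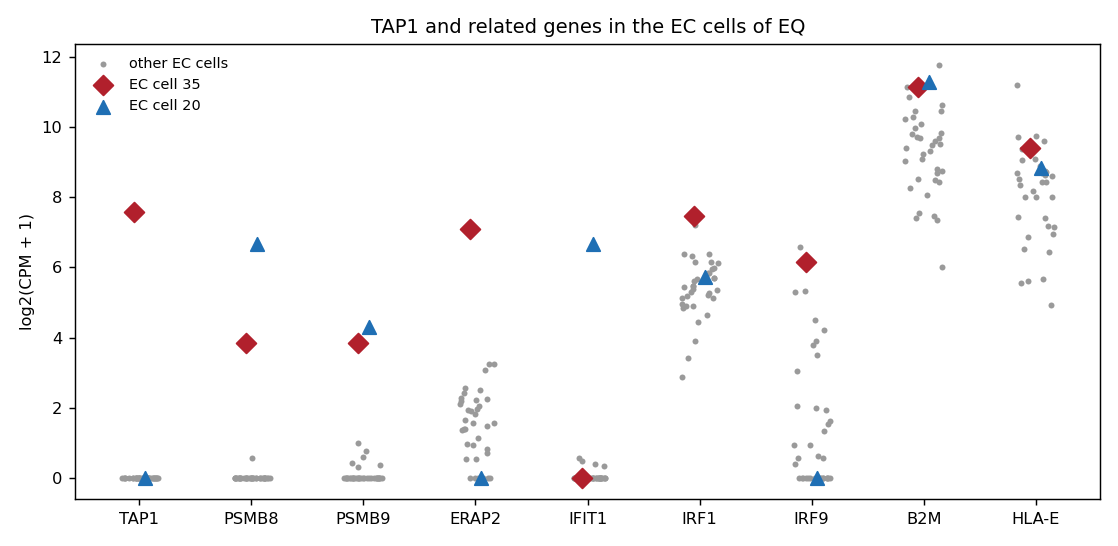
TAP1 and related genes in the 38 EC cells of EQ, as log2(CPM + 1), with EC cell 35 as red diamonds, EC cell 20 as blue triangles and the other 36 cells as grey points. Cell 35 stands alone for TAP1 and ERAP2 and cell 20 for IFIT1, and both are among the highest cells for B2M.

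Levels can be compared between genes only once divided by length, and the choice of length matters for HLA-E and B2M. The HLA-E reference transcript of 2548 bases holds 1074 coding bases, and that of B2M 357 of 943, against 1098 of 1542 in HLA-C. Per kb of coding length, the mean level of B2M was 2533 CPM in EC and 735 CPM in TB. Among the heavy chains, EC held 380 CPM per coding kb of HLA-E, 27.3 of HLA-B, 25.2 of HLA-C and 6.43 of HLA-F. TB held 78.5 CPM per coding kb of HLA-E and 77.4 of HLA-C, which differed by far less than their spread between cells, with 11.5 of HLA-B and 1.87 of HLA-F. So HLA-E made up 86.6% of the summed heavy-chain level in EC and 46.4% in TB, and HLA-C 5.75% in EC and 45.7% in TB.

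Per kb of the whole transcript the order in TB turned, with 55.1 CPM of HLA-C and 33.1 CPM of HLA-E, or 56.2% and 33.8% of the sum. In EC HLA-E stayed the highest by either length, at 160 CPM per transcript kb against 17.98 of HLA-C. The EC to TB contrast in these shares was therefore present with both lengths, while the order of HLA-C and HLA-E within TB was not settled by these counts.

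Cell by cell, HLA-E per coding kb was the highest heavy chain in 33 of 38 EC cells, HLA-C in 4 and HLA-B in 1. In TB, HLA-E was highest in 24 of 48 cells, HLA-C in 23 and HLA-B in 1, and per transcript kb HLA-C led in 30, HLA-E in 16 and HLA-B in 2. The median share of HLA-E within a cell was 90.2% in EC (middle 50% of cells, 76.6 to 95.9%) and 44% in TB (9.52 to 66.7%). That of HLA-C was 2.95% in EC and 45.8% in TB, and that of HLA-B 2.07% and 0.815%. B2M exceeded the summed heavy chains per coding kb 5.84-fold in the median EC cell and 6.07-fold in the median TB cell. The middle 50% of cells spanned 4.06 to 9.99 and 2.59 to 11.5, which overlap. Per transcript kb the medians were 4.69-fold in EC and 3.72-fold in TB, so their order turned with the length used. Per coding kb in EQ-75%, HLA-E made up 87.9% of the EC sum, and HLA-E and HLA-C 47.8% and 44.2% of the TB sum.

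**Figure D3:**
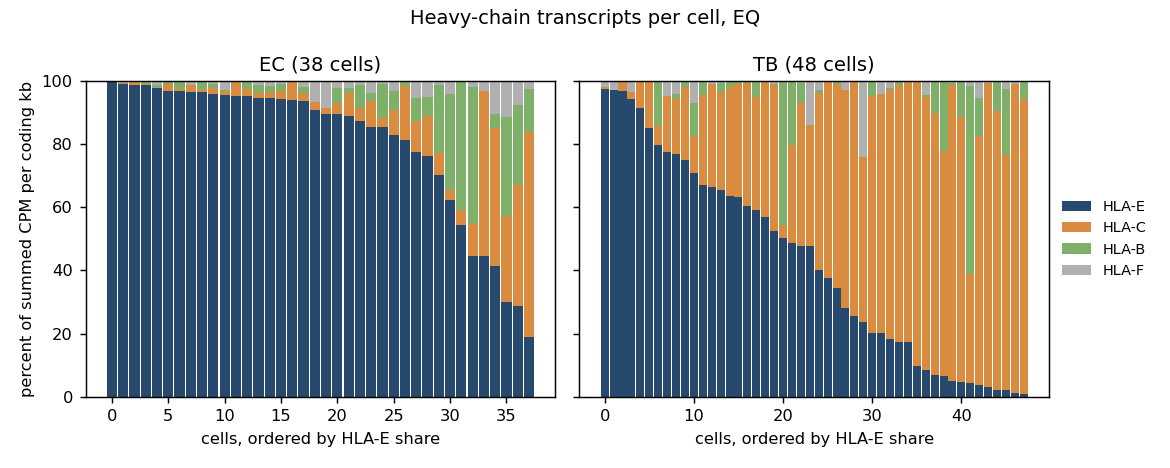
Share of each heavy chain in the summed CPM per kb of coding length, with 1 bar per cell of EQ and cells ordered by the share of HLA-E. HLA-E (dark blue) fills most bars of the 38 EC cells, while in the 48 TB cells HLA-E is highest in 24 and HLA-C (orange) in 23.

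The directions were those of EQ in both other experiments, which use the same cells and are not separate samples. For HLA-C the log2 ratio of TB over EC was 1.32 in EQ-Vary and 1.83 in EQ-75%. HLA-E gave -2.40 and -2.33, B2M -1.82 and -1.66, HLA-B -1.13 and -1.23, and HLA-F -2.31 and -2.22. In each experiment 5 of the 6 genes were at least 2-fold higher in EC and 1 in TB, with TAP1 again resting on cell 35.

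**Figure D4:**
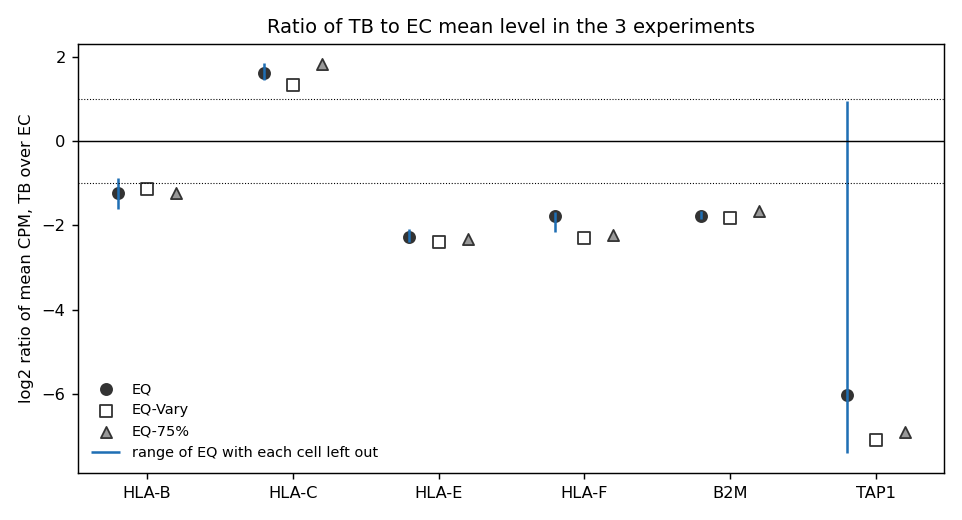
Log2 ratio of mean CPM, TB over EC, in EQ (black circles), EQ-Vary (open squares) and EQ-75% (grey triangles), with dotted lines at a 2-fold ratio and blue lines for the range of the EQ value when each cell is left out in turn. HLA-C stays above the upper line throughout, HLA-B crosses the lower line without EC cell 37, and the TAP1 range runs from -7.41 to 0.95.

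The lower level of each gene can be set beside that of the markers in the cell type they do not mark. Endothelial markers stood in TB at 0.0819 to 2.94% of their EC level (median 0.235%, 10 genes). HLA-B in TB was at 42.3% of its EC level, HLA-F at 29.1%, B2M at 29.01%, HLA-E at 20.7% and TAP1 at 1.53%. For HLA-C in EC, at 32.6% of its TB level, the trophoblast markers ranged more widely, from 0.133% (KRT7) to 50.8% (GATA3), with a median of 9.22% over 8 genes. The source of the low counts, in markers or in class I genes, was not tested. The endothelial markers had a count in 6.25 to 100% of TB cells.

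Spread between cells was mostly what genes of the same level showed. The variance of log2 values, scaled by pooled size factors, was at least 1.5 times the trend over all genes for 1 of 6 genes in EC (TAP1, 2.35 times) and for 0 of 6 in TB, where all genes gave 17.2% in EC and 12.4% in TB. B2M came next in EC at 1.42 times the trend and HLA-E stood at 1.07 times. HLA-F was under the trend in both, at 0.445 times in EC and 0.492 times in TB. In EQ-Vary 2 of 6 genes were past 1.5 times in EC, B2M at 1.51 and TAP1 at 1.72 times, and in EQ-75% 0 of 6.

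On the log2(CPM + 1) scale, the SD between cells of HLA-E was 1.36 in EC and 2.29 in TB, and that of HLA-F 1.44 and 1.23. HLA-B had SDs of 2.25 in EC and 2.17 in TB, and HLA-C of 1.84 and 2.09. For HLA-F the order turned with a pseudocount of 0.1, at 2.44 in EC and 2.51 in TB. No test of these differences was possible with 1 sample a type.

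The repeat libraries show how much of this spread belongs to the cell's cDNA. For B2M, the values of 37 EC cells in EQ and EQ-75% had a Spearman correlation of 0.99, and those of 47 TB cells 0.98. For HLA-E the values were 0.99 and 0.97, for HLA-C 0.94 and 0.98, and for HLA-B 0.95 and 0.84. HLA-F, the lowest of the heavy chains, had 0.74 and 0.82. The SD of the difference within cells was 0.21 for B2M in EC on the log2(CPM + 1) scale, against 1.24 between the same cells, and 0.83 for HLA-F, against 1.42. Low levels were the less steady: of 31 TB cells with a count of HLA-B in either library, 21 had one in both, and for HLA-E 45 of 47. These correlations cover amplified cDNA of the same cells, so they include no variation from capture or reverse transcription.

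Mean shifts between the experiments were small beside that spread. From EQ to EQ-75%, B2M was 0.11 higher in EC (33 of 37 cells) and 0.13 higher in TB (34 of 47 cells) on the log2(CPM + 1) scale. HLA-E was lower by a mean of -0.20 in EC (31 of 37 cells) and -0.29 in TB (32 of 47 cells), and HLA-C by -0.32 and -0.23. The medians over all genes compared were -0.10 in EC and -0.07 in TB. From EQ to EQ-Vary the means for HLA-E and B2M lay between -0.03 and 0.01. HLA-B was 0.23 higher in EC (23 of 38 cells) and 0.23 higher in TB (22 of 46 cells), and HLA-F was lower by a mean of -0.14 in TB.

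**Figure D5:**
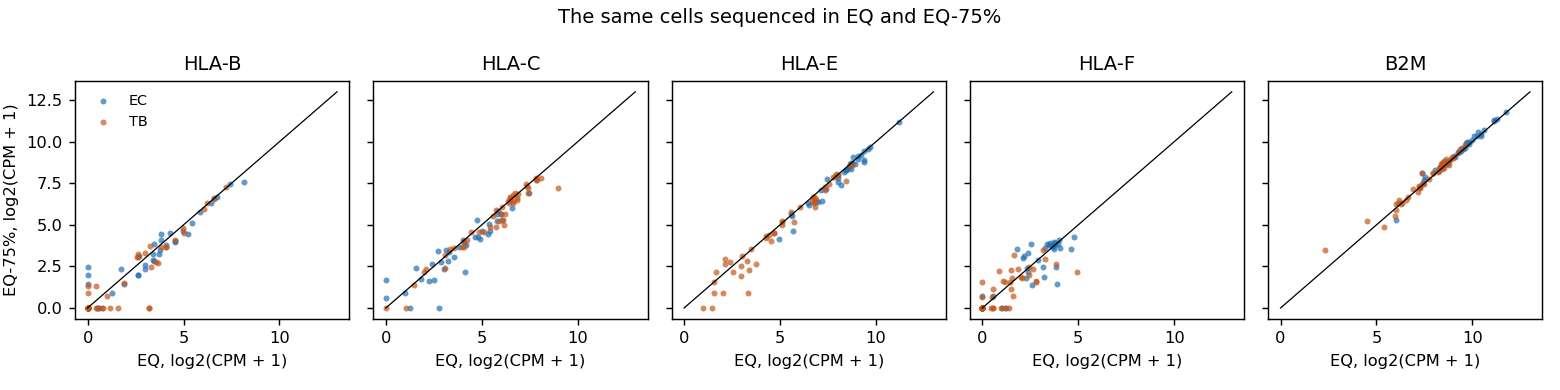
Level of 5 genes in the same cells in EQ (horizontal) and EQ-75% (vertical), as log2(CPM + 1), with 37 EC cells in blue, 47 TB cells in orange and the line of equal values. B2M and HLA-E keep close to the line, while HLA-F and low HLA-B values scatter and often fall to 0 in one library.

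Across cells, the heavy chains did not form 1 block. In the 38 EC cells of EQ, Spearman's rho was 0.51 between HLA-B and HLA-C, 0.48 between HLA-B and HLA-F and 0.43 between HLA-C and HLA-F. HLA-E was unrelated to HLA-B (0.09) and HLA-C (-0.08) and was closer to B2M (0.39), with HLA-B and B2M at 0.34. In EQ-75% HLA-B and HLA-C were at 0.53 and HLA-E and B2M at 0.35, but the values with HLA-F dropped to 0.23 and 0.15. In the 48 TB cells, HLA-B and HLA-C were at 0.39 in EQ and 0.18 in EQ-75%, and HLA-E and B2M at -0.07. These are descriptions over cells that share a library pool, and HLA-B and HLA-C also share the read stretches described above. The total count had rho of 0.36 with HLA-B and 0.39 with HLA-C in EC, beside which their own rho should be read.

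The genes most like the mean of HLA-B, HLA-C, HLA-E and B2M across EC cells were SNCG, PET117, LRRC70, C11orf57 and COA5, of 8894 genes with a count in at least 50% of the cells. Their rho in EQ was 0.61 to 0.54, and in EQ-75% 0.48, 0.37, 0.45, 0.62 and 0.45. Across TB cells they were EIF3A, LAMB2, RELN, ANKLE1 and SLC15A1, at 0.59 to 0.53 in EQ, against 0.56, 0.56, 0.51, 0.45 and 0.43 in the repeat EQ-75%. The lists for EC and TB named no gene in common. These are the highest of a long list of values and are described only.

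Lists of related genes were compared in the same way. Of 96 listed genes, 76 could be compared, and 23 were at least 2-fold higher in EC and 16 in TB, against 19.2% and 26.2% of all genes. Their median log2 ratio of TB over EC was -0.23. The lists were drawn up with earlier results of these data known.

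Among 9 compared genes of peptide loading and trimming, 2 were higher in EC, 1 in TB and 6 were within 2-fold. TAPBP encodes tapasin, which bridges TAP and the heavy chain, and it was higher in EC, at 387 ± 360 CPM against 159 ± 169 CPM. The general chaperones that fold heavy chains differed little: calreticulin (CALR) was at 486 CPM in EC and 558 CPM in TB, and calnexin (CANX) at 323 and 371 CPM. HSPA5, the lumenal HSP70 chaperone, was 2.09-fold higher in TB. ERAP2 was called higher in EC, at means of 5.92 and 2.14 CPM, but its medians were 1.98 and 1.59 CPM and cell 35 alone held 136 CPM.

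Of 7 compared proteasome genes, 1 was higher in EC and 2 in TB. PSMB8, an immunoproteasome catalytic subunit, had 0 counts in TB and was at least 97.2-fold higher in EC (mean 3.02 CPM, with TB set to 3 counts over the group), but it was found in 3 EC cells only. It passed the filter through EC cell 20: without that cell its EC mean was 0.375 CPM, at least 12.1-fold above TB, and 0 of 6 compared genes of the list were higher in EC. PSMB10, another such subunit, was 4.10-fold higher in TB, at 6.78 CPM, and had a count in 21 of 48 TB and 8 of 38 EC cells. The constitutive subunit PSMB5 was at 431 CPM in EC and 677 CPM in TB, and PSMB7 at 239 and 285 CPM. The activator subunits PSME1 (114 and 179 CPM) and PSME2 (89.3 and 112 CPM) were also within 2-fold.

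Factors that act at class I promoters showed no common direction, with 2 of 12 higher in EC, 4 in TB and 6 within 2-fold. IRF1 was at 50.7 ± 32.7 CPM in EC and 48.2 ± 43.3 CPM in TB, and CREB1, which binds CRE sites, at 106 and 71.3 CPM. RFXANK, a subunit of the RFX complex, was 2.05-fold higher in EC. RFXAP, another subunit, was higher in TB at a mean of 3.47 CPM against 0.493 CPM. It had a count in 10 TB and 6 EC cells, and its medians were 0 in both cell types. NFYC, of the CCAAT-binding NF-Y complex, was 2.18-fold higher in TB.

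Interferon receptors and their signalling genes were higher in EC for 3 of 12 and higher in TB for 1. IFNGR1, a chain of the interferon gamma receptor, was at 657 ± 491 CPM in EC and 109 ± 137 CPM in TB, 6.01-fold higher in EC. The kinase JAK1 was 4.89-fold higher in EC (171 and 34.9 CPM) and STAT3 3.38-fold (216 and 64.0 CPM). IFNAR1, of the type I interferon receptor, was at 115 CPM in EC and 74.7 CPM in TB.

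Interferon-stimulated genes split, with 7 of 10 compared genes higher in EC, 3 in TB and 0 within 2-fold, or 6 of 9 higher in EC without cell 20, since PSMB8 is on this list too. Higher in EC were the antiviral membrane proteins IFITM1 (182 and 17.0 CPM), IFITM2 (343 and 28.7 CPM) and IFITM3 (1349 and 347 CPM). BST2, which tethers virus particles to the cell, was at 160 ± 281 CPM in EC and 0.525 CPM in TB, and IFIT3 at 159 and 3.53 CPM. IFIT2 was found in 6 EC cells (mean 9.44 CPM) and 2 TB cells. The 3 genes higher in TB were ISG15, IFIT1 and IFI6, named here after their values were seen, and IFI6 was 31.1-fold higher there.

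Of 7 compared class I-like molecules, 3 were higher in EC and 1 in TB. PROCR, the endothelial protein C receptor, whose fold resembles class I but which binds no B2M, was at 370 ± 473 CPM in EC and 1.99 CPM in TB. ULBP1, a ligand of the killer cell receptor NKG2D, was 3.75-fold higher in EC by the mean, although its medians were 7.24 and 5.59 CPM. ULBP2, of the same family, was found in 8 EC cells and 1 TB cell, at means of 8.07 ± 37.9 and 0.00831 CPM. HFE and FCGRT, which do pair with B2M, were within 2-fold, HFE at 27.9 and 21.8 CPM and FCGRT at 13.4 and 9.29 CPM.

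MHC class II gave 3 of 7 compared genes higher in EC and 1 in TB. CD74, the class II invariant chain, was 3.80-fold higher in TB (26.4 CPM in EC and 100.1 CPM in TB, with a count in 47 of 48 TB cells). HLA-DRB1 was at 49.9 ± 122 CPM in EC and 1.66 CPM in TB, and HLA-DQB1 at 30.1 and 0.0605 CPM. Their EC medians were only 1.35 and 0.39 CPM, with a count in 24 and 20 EC cells. HLA-DMA, which helps to load class II, was at 11.2 and 9.46 CPM. HLA-DRA, the alpha chain that pairs with HLA-DRB1, was listed at 0 in every passing cell of EQ, and HLA-DQA1, which pairs with HLA-DQB1, in all but 1 EC cell. These alpha chains were named after their values were seen, and whether a 0 there means no transcript or reads lost before the counts were made is not known.

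Checkpoint and complement regulators were higher in EC for 1 of 6 compared genes and in TB for 2. VTCN1, the T cell inhibitor B7-H4, was at 1142 ± 468 CPM in TB and 3.64 CPM in EC, with a count in every cell of both. CD59, which blocks the membrane attack complex, was 2.88-fold higher in TB, CD276 was 4.05-fold higher in EC, CD46 was at 222 CPM in EC and 390 CPM in TB, and CD47, a signal against phagocytosis, at 305 and 155 CPM. Of 7 genes of PRC2 and epigenetic silencing, 2 were higher in EC and 1 in TB: DNMT3A at 865 and 425 CPM, DNMT3B at 69.6 and 33.1 CPM, and EED at 14.2 and 34.3 CPM. DNMT1 (93.8 and 98.6 CPM) and TRIM28 (45.9 and 61.3 CPM) were within 2-fold.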

How the data were processed

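Expected counts of 17492 protein-coding genes were analysed in 288 libraries. Per the methods, the authors trimmed reads to 51 bases, mapped them with Bowtie 1.2.3 and up to 2 mismatches to GRCh38 Ensembl protein-coding genes, and deposited the RSEM 1.2.31 expected counts without normalization. Counts were rounded and divided by the cell's total to give CPM. Cells had a log10 total count of at least 5.4 and at most 31% of counts in their top 50 genes. A mean resting on fewer than 3 counts was set to 3 counts for ratios. A gene was called past a 2-fold ratio, without a test. Variance trends and size factors came from scran 1.30.0 and edgeR 4.0.16 (R 4.3.3), and other steps used Python 3.11.15. Levels per length used the coding length of MANE Select transcripts of GENCODE v44, with the transcript length as an added alternative. Same-numbered cells share cDNA across experiments, as the paper states, and differences were taken within cells. Exact binomial intervals (95%) cover only the error of drawing a limited number of cells, with the cells taken as independent draws.

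The members and lists were chosen with earlier results of these data known. From each pathway list the text names the 4 genes with the highest average level and the 2 with the largest ratio, with exceptions said to be chosen after their values were seen. Fold calls were tried on simulated data with planted 4-fold changes, and variance ratios with planted extra spread, both in genes of higher mean level. These trials do not cover ratios near 2-fold or genes as low as HLA-F and TAP1. Alternatives were other cells, scalings, summaries, thresholds, experiments and each cell left out. The unEQ libraries were not analysed here. A gene and a promoter motif that were examined are not reported here.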

Additional observations from a re-analysis of the deposited data

Results flagged for a closer look

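Libraries that did not meet the limits on depth and top-gene share entered no comparison, but they held counts of the 6 genes above the limit of 3 counts that an empty set allows. In EQ, the 7 EC libraries left out held 412 counts in all, of which 270 were B2M, and the 3 TB libraries held 43. In EQ-Vary the 7 EC libraries left out held 205 counts and the 5 TB libraries 344. The 6 EC libraries left out of EQ-75% held 394 counts. B2M had a count in every one of these libraries.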

How the results depend on the processing

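Of 133 alternative values for the TB to EC ratios, the HLA-C to HLA-E ratios per kb, the counts of genes past 2-fold and the counts past the variance trend, 123 kept the call of the values reported. A count of genes was taken as kept if it lay within 1.5 times the reported count. By this rule 4 genes higher in EC in place of 5 were taken as kept, although a gene had lost its call. With each cell left out in turn, the log2 ratio of HLA-B ran from -1.61 to -0.87 and that of TAP1 from -7.41 to 0.95. The other ranges were 1.46 to 1.84 (HLA-C), -2.40 to -2.08 (HLA-E), -2.17 to -1.69 (HLA-F) and -1.85 to -1.67 (B2M), and 4 to 5 genes were higher in EC. Without EC cell 35, an alternative chosen after seeing the data, TAP1 turned to 0.95, and by the mean of log2(CPM + 1) it was -0.13. The log2 ratio of HLA-C over HLA-E in TB was -0.02 per coding kb and 0.74 per transcript kb, a length also added after seeing the data. HLA-B was at -1.94 with all deposited cells and -3.49 by medians. At 4-fold, 0 genes were higher in TB and 2 in EC. The count of genes past the variance trend in EC was 2 in EQ-Vary, 0 in EQ-75% and 2 at a lower multiple of the trend. Without the replicate block, taking all passing cells of each experiment, each of the 24 mean differences between experiments stayed within 1 SD of the differences within cells. That SD describes single cells and is a wide limit for a mean over many cells, so it says little about how steady these means were. Depth limits HLA-F, TAP1 and low HLA-B values, where few counts decide a cell's level. Of the alternatives for the SD between cells, 25 moved the SD by more than its standard error and 47 did not.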
